A study of Arabidopsis thaliana with 48 samples.

Results

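CML23 and CML43 are calmodulin-like genes of Arabidopsis thaliana, each represented on the ATH1 expression array by a single probe set (locus AT1G66400 for CML23 and AT5G44460 for CML43). They are 2 of 22746 probe sets without controls, found by their gene symbols, and both passed the filter on low values that left 15780 probe sets for testing. They were chosen by their signals on these same arrays in earlier results, and which comparison led to the choice is not recorded. Their own levels and differences are therefore given as descriptions, with SD or standard error (SE) and without p-values, while other genes were tested. The lists of other genes were also chosen with earlier results of these data known, which limits what their p-values and counts can show.

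Calmodulin-like proteins are small calcium sensors. A stimulus opens calcium channels, cytosolic calcium rises, and the ion binds to helix-loop-helix motifs called EF hands, which changes the shape of the sensor and lets it bind other proteins. Unlike the nearly identical calmodulins, the members of this plant family differ in sequence and in the tissues and stimuli where they are expressed. CML23 is the close relative of CML24, also known as the touch gene TCH2, and CML23 and CML24 have been linked to flowering time and nitric oxide. CML43 is the close relative of CML42, and its transcript has been linked to pathogen and salicylic acid responses.

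The arrays were made from Col-0 seedlings, mainly hypocotyl and cotyledons, grown for 94 h in darkness at 22 °C and then either left dark or given 1 of 7 light treatments. Continuous light at 10 µmol per m2 and s was white, blue (453 nm), red (650 nm) or far-red (715 nm), and the red pulse lasted 1 min at 50 µmol per m2 and s. The UV-A pulse lasted 5 min at 7 W per m2 behind a filter with a cut-off of 327 nm, and the pulse called UV-A/B here also lasted 5 min, with a cut-off of 307 nm given in a single label. That label belongs to UV-A/B 45 min replicate 2, gives no pulse length and conflicts with the title of its array. Each of these 8 conditions was harvested at 45 min and at 4 h on 3 arrays, which gives 16 groups and 48 arrays, all of wild-type seedlings that shared the same dark growth. The labels do not say whether replicates were separate cultures, so the spread behind each p-value is that of the arrays at hand and may be technical.

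Some labels conflict. UV-A/B 45 min replicate 2 is described as dark, against its title. For dark 4 h replicate 1 green germination light is given where the other samples have red. The number of far-red 45 min replicate 2 was read from the end of its title, since a prefix there gives 1, and the treatment is not spelled out in 5 of the 6 UV-A/B labels. Signals are MAS5 intensities on a linear scale with a trimmed mean of 100 in every array, and correlations between replicates lay between 0.950 and 0.980. The shoot markers RCA (Rubisco activase) and PORB (a protochlorophyllide oxidoreductase) stood at or above the 91.4th and 90.1th percentile of every array. Of the root markers, PYK10, a glucosidase of endoplasmic reticulum bodies, stood at or above the 99.9th percentile of every array, and EXPA7, a root hair expansin, was low at signals of 2.7 to 25. In whole seedlings, fewer cells of a type and less RNA per cell cannot be told apart.

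The signal of CML23 was low to moderate. It ranged from 15.6 in blue 4 h replicate 2 to 71.6 in UV-A/B 45 min replicate 3, with a median of 37.55 over 48 arrays, which places it between the 28.6th and 65.0th percentile of an array. It exceeded the 40th percentile (a signal of 24.3 to 30.1, depending on the array) in 38 of 48 arrays and was never 0. CML43 ranged from 41.5 in far-red 4 h replicate 2 to 144.5 in UV-A 45 min replicate 3, with a median of 99.6, and exceeded the 40th percentile in 48 of 48 arrays. Differences between groups made up 76.6% of the variance of log2(signal + 1) in CML23 and 70.1% in CML43, and the pooled SD within groups was 0.31 and 0.27 on that scale. Part of such a share arises from the spread of arrays alone, and the genes were chosen on these arrays, so it is a description. Where CML23 was low at 4 h its signal lay under that percentile, where an added pseudocount of 1 understates a change.

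**Figure D1:**
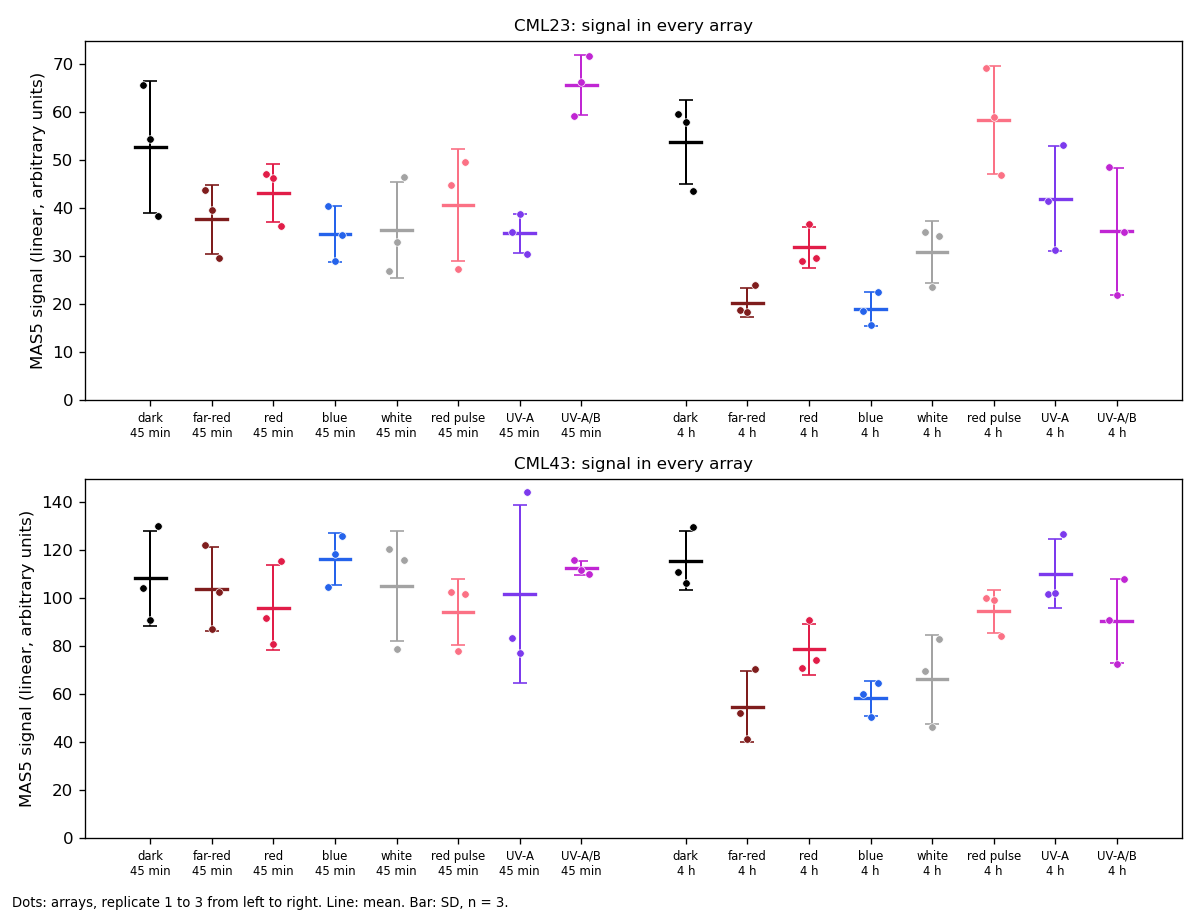
MAS5 signal (linear, arbitrary units) of CML23 and CML43 in each of the 16 groups, with dots for arrays, lines for means and bars for SD (n = 3). At 4 h the 12 arrays of continuous far-red, red, blue and white light lie below the 3 dark arrays in both genes, at 15.6 to 36.8 for CML23 and 41.5 to 90.8 for CML43, and at 45 min CML23 is highest after UV-A/B.

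At 4 h both genes were lower under every continuous light than in darkness. The dark arrays held CML23 signals of 59.6, 58.0 and 43.6 (mean 53.7 ± 8.81, SD, n = 3). Under far-red light the signals were 18.8, 18.3 and 23.9 (20.3 ± 3.10, n = 3), and under blue light they were 18.6, 15.6 and 22.6 (18.9 ± 3.51, n = 3). These 6 arrays include the lowest of the series, and the highest of them lies well under the lowest dark array. On the log2(signal + 1) scale CML23 differed from darkness by -1.36 (SE 0.25) in far-red and by -1.46 (SE 0.25) in blue light. All 6 of these signals lay under the 40th percentile of their arrays, at the 28.6th to 36.8th, so no linear fold is given for them. Red light gave 29, 36.8 and 29.7 (31.8 ± 4.32, n = 3), and white light gave 35, 23.5 and 34.2 (30.9 ± 6.42, n = 3). All red and white arrays lay below the dark arrays. The red arrays lay above all far-red and blue arrays, while white replicate 2 fell within the far-red range. Their log2 differences from dark were -0.73 and -0.79 (SE 0.25 each).

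CML43 had the same order of dark against continuous light. Its dark 4 h signals were 110.9, 106.4 and 129.6 (116 ± 12.3, n = 3). Far-red light gave 52.0, 41.5 and 70.7 (54.7 ± 14.8, n = 3), and blue light gave 60.0, 50.4 and 64.6 (58.3 ± 7.25, n = 3). The dark mean was 2.11 times the far-red mean, and no array of either light reached the dark range. The log2 differences from dark were -1.09 in far-red and -0.98 in blue light (SE 0.21 each). Red light gave 71.0, 90.8 and 74.3 (78.7 ± 10.6, n = 3) and white light 69.7, 46.3 and 82.9 (66.3 ± 18.5, n = 3), with log2 differences of -0.55 and -0.83 (SE 0.21). All of these arrays were under the lowest dark array too, although the spread under white light was wide.

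The shift of all 3 light arrays below all 3 dark arrays was common at 4 h. Of the 15780 tested probe sets it was seen in 24.1% with far-red, 22.4% with blue, 19.4% with white, 17.6% with red light and 10.7% with the red pulse. Nothing particular to CML23 and CML43 is therefore read from the separation of the groups. By size, the far-red difference of CML23 stood at the 1.92nd percentile of all tested probe sets and that of CML43 at the 2.88th, counted from the most lowered, and in blue light they stood at the 1.43rd and 3.22nd. The medians of all tested probe sets were -0.03 in far-red and -0.02 in blue light, on arrays scaled to a common trimmed mean, which leaves an array-wide shift unseen. All comparisons of a harvest use the same 3 dark arrays. Without dark 4 h replicate 1, whose label conflicts, the differences in far-red, blue, red and white light were -1.28, -1.38, -0.65 and -0.71 for CML23. For CML43 they were -1.12, -1.0, -0.58 and -0.86.

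The pulses left smaller differences at 4 h. After the red pulse CML23 stood at 69.2, 59.0 and 46.8 (58.3 ± 11.2, n = 3), which overlaps darkness, and the log2 difference was 0.11 (SE 0.25). CML43 stood at 100.0, 99.2 and 84.4 (94.5 ± 8.78, n = 3) after the same pulse, just under the dark range, with a difference of -0.29 (SE 0.21). After UV-A both genes overlapped darkness, CML23 at 41.4, 31.3 and 53.1 (41.9 ± 10.9, n = 3) and CML43 at 101.7, 102.4 and 126.9 (110 ± 14.4, n = 3). The UV-A differences were -0.37 (SE 0.25) for CML23, from -0.55 to -0.18 with single arrays left out, and -0.07 (SE 0.21) for CML43. After UV-A/B the CML23 arrays spread widely, at 48.5, 22.0 and 35 (35.2 ± 13.3, n = 3), and the difference of -0.65 (SE 0.25) was -0.36 without replicate 2, its lowest array. CML43 after UV-A/B was at 90.9, 72.7 and 108.1 (90.6 ± 17.7, n = 3), with a difference of -0.36 (SE 0.21), or -0.21 without replicate 2. Over the 3 pulses, 4 of 9 arrays for CML23 and 7 of 9 for CML43 were below all dark arrays, against 12 of 12 in continuous light for both genes. All were set against the same 3 dark arrays, and how many other probe sets have such counts was not computed.

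Red light given continuously and as a pulse can be set against each other directly, since both used 650 nm, although at different fluence rates. At 4 h all 3 continuous red arrays of CML23 were under all 3 red pulse arrays (log2 difference -0.84, SE 0.25), a separation that 9.91% of tested probe sets had. For CML43 the same difference was -0.27 (SE 0.21), and the ranges overlapped, the highest red array at 90.8 and the lowest pulse array at 84.4. At 45 min the differences were 0.12 (SE 0.25) for CML23 and 0.02 (SE 0.21) for CML43.

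**Figure D2:**
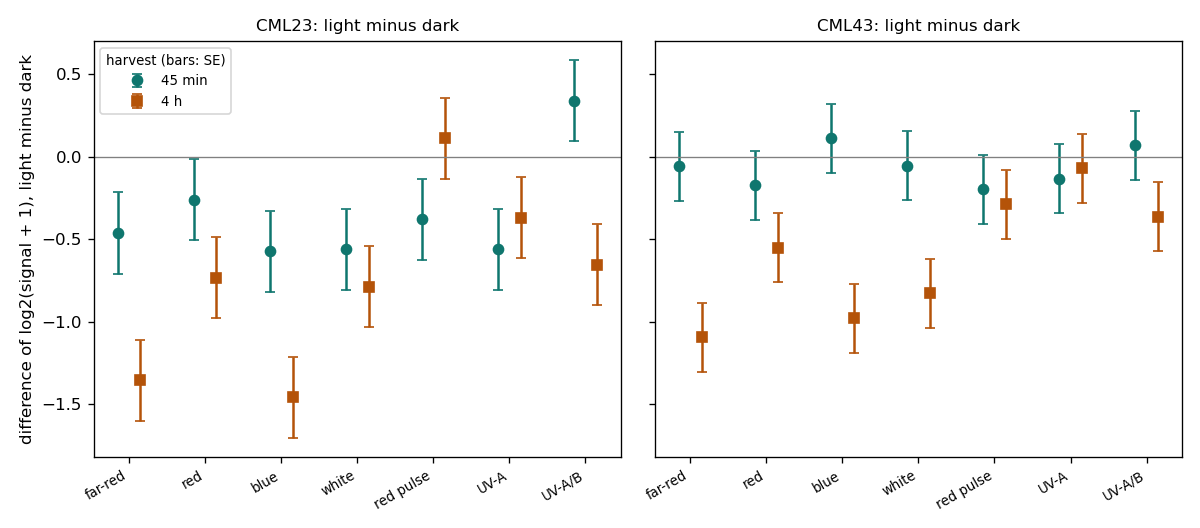
Difference of log2(signal + 1) from the dark group of the same harvest for 7 light treatments, with SE bars. The 4 h values of continuous light run from -0.73 to -1.46 for CML23 and from -0.55 to -1.09 for CML43, while at 45 min CML23 is above 0 after UV-A/B alone (0.34) and CML43 lies between -0.20 and 0.11.

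At 45 min the estimated differences from darkness were larger in CML23 than in CML43, and the genes were not tested against each other. CML23 in darkness was at 65.7, 54.3 and 38.3 (52.8 ± 13.8, n = 3), a wide spread. All treatments but UV-A/B had lower means, with log2 differences from -0.26 in red to -0.57 in blue light (SE 0.25), but no treatment was separate from darkness in all arrays. These values hang on single arrays: the red difference was -0.09 without dark replicate 1 and -0.47 without dark replicate 3, and the red pulse difference of -0.38 was -0.13 without red pulse replicate 2. Blue light gave 40.5, 29 and 34.4 (34.6 ± 5.75, n = 3), UV-A 35.1, 38.7 and 30.5 (34.8 ± 4.11, n = 3) and white light 27, 32.9 and 46.5 (35.5 ± 10.0, n = 3). Far-red light gave 43.7, 39.6 and 29.6 (37.6 ± 7.25, n = 3), the red pulse 44.8, 27.4 and 49.6 (40.6 ± 11.7, n = 3) and red light 47, 46.3 and 36.2 (43.2 ± 6.04, n = 3). In each of these groups at least 1 array was at or above the lowest dark array, and 9 of the 21 light arrays lay below all dark arrays.

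CML43 scarcely moved at 45 min. Its dark signals were 104.2, 91.0 and 130.0 (108 ± 19.8, n = 3), and the 7 light means lay between 94.3 after the red pulse and 116 in blue light. The log2 differences ran from -0.20 to 0.11 (SE 0.21). Far-red light gave 122.2, 87.3 and 102.5 (104 ± 17.5, n = 3), white light 120.4, 78.9 and 116.0 (105 ± 22.8, n = 3) and red light 91.6, 80.9 and 115.6 (96.0 ± 17.8, n = 3). The UV-A arrays were the most scattered, at 83.6, 77.2 and 144.5 (102 ± 37.1, n = 3), the last of which is the highest CML43 signal of the series, and without it the UV-A difference of -0.13 was -0.41. All 7 groups overlapped darkness.

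UV-A/B was the treatment in which CML23 stood highest. At 45 min its arrays were at 59.2, 66.3 and 71.6 (65.7 ± 6.22, n = 3), and 2 of these 3 exceeded every dark array. The difference from darkness was 0.34 (SE 0.25), within the dark arrays' spread, and 0.33 without replicate 2, whose label conflicts. It was 0.13 without dark 45 min replicate 3 and 0.51 without dark 45 min replicate 1. Against UV-A, a pulse of equal length with the higher filter cut-off as labelled, the difference was 0.90 (SE 0.25), or 0.89 without UV-A/B replicate 2. The UV-A/B mean was 1.89 times the UV-A mean with no overlap. That separation was seen in 5.44% of tested probe sets, and the difference stood at the 98.9th percentile of them. Nothing particular to CML23 is read from either value, since the gene was chosen on these arrays. At 4 h the arrays overlapped and the difference was -0.28 (SE 0.25), a negative value that rests on UV-A/B replicate 2, without which it was 0.01. CML43 at 45 min was at 116.0, 112.0 and 110.0 after UV-A/B (113 ± 3.06, n = 3), overlapping UV-A, with differences of 0.20 at 45 min and -0.29 at 4 h (SE 0.21).

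The harvest itself made little difference in darkness. From 45 min to 4 h the dark groups differed by 0.05 (SE 0.25) in CML23 and by 0.10 (SE 0.21) in CML43. The light effect at 4 h minus that at 45 min was -0.89 in far-red and -0.89 in blue light for CML23 (SE 0.35), and -1.04 and -1.09 for CML43 (SE 0.30). In white light it was -0.23 for CML23, from -0.40 to -0.02 with single arrays left out, and -0.77 for CML43. In red light it was -0.47 and -0.38. UV-A differed little between harvests, at 0.19 and 0.06, and the red pulse gave 0.49 and -0.09.

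In the order of group means, CML23 ran from 65.7 (UV-A/B 45 min) through red pulse 4 h, dark 4 h and dark 45 min to white, far-red and blue light at 4 h, the last of these at 18.9 and under the 40th percentile of each array. CML43 ran from 116 (blue 45 min) through dark 4 h and UV-A/B 45 min to red, white, blue and far-red light at 4 h, where the highest mean was 2.13 times the lowest. In both orders the 4 groups of continuous light at 4 h took the last 4 places, and how many other probe sets have such an order was not computed. Neighbours in the order were not distinct, since in 0 of 15 neighbouring pairs of either gene were the ranges of the 3 arrays apart. Over the 16 group means the genes correlated at 0.803, over the 8 groups at 4 h at 0.892 and over the 8 at 45 min at 0.305, where CML43 varied little. These values are descriptions, and the groups share array scaling and dark controls.

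Among the 8665 tested probe sets of a single named gene, those most like CML23 over the 16 group means were GH3.3 (r = 0.935), AT2G31730 (r = 0.927), WES1 (r = 0.919), EXLA1 (r = 0.918) and THE1 (r = 0.917). GH3.3 and WES1 encode enzymes that join auxin to amino acids, EXLA1 is an expansin-like protein and THE1 is a receptor-like kinase of the cell wall. The mean signal of GH3.3 was 370.8 in darkness and 35.4 in far-red light at 4 h, that of WES1 1152 and 375.8, and that of EXLA1 332.0 and 99.4. Over the 8 groups at 45 min alone GH3.3 correlated with CML23 at 0.959, and both had their highest group mean after UV-A/B at that harvest. Both facts are no separate support, since GH3.3 was picked for its correlation over all 16 groups, which include these 8. Closest to CML43 were AT1G62020 (r = 0.970), TUB6 (r = 0.965), GH9B13 (r = 0.957), AT4G09160 (r = 0.955) and scpl40 (r = 0.955). TUB6 is a beta-tubulin, GH9B13 belongs to a family of endoglucanases that act on the cell wall, and scpl40 is a serine carboxypeptidase-like protein. GH9B13 stood at 489.3 in darkness and 54.7 in far-red light at 4 h, and TUB6 at 665.0 and 375.0. At 45 min the correlations of these 5 with CML43 were lower, from 0.145 for AT4G09160 to 0.693 for AT1G62020. CML43 was number 110 among the probe sets most like CML23, and CML23 number 426 among those most like CML43.

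**Figure D3:**
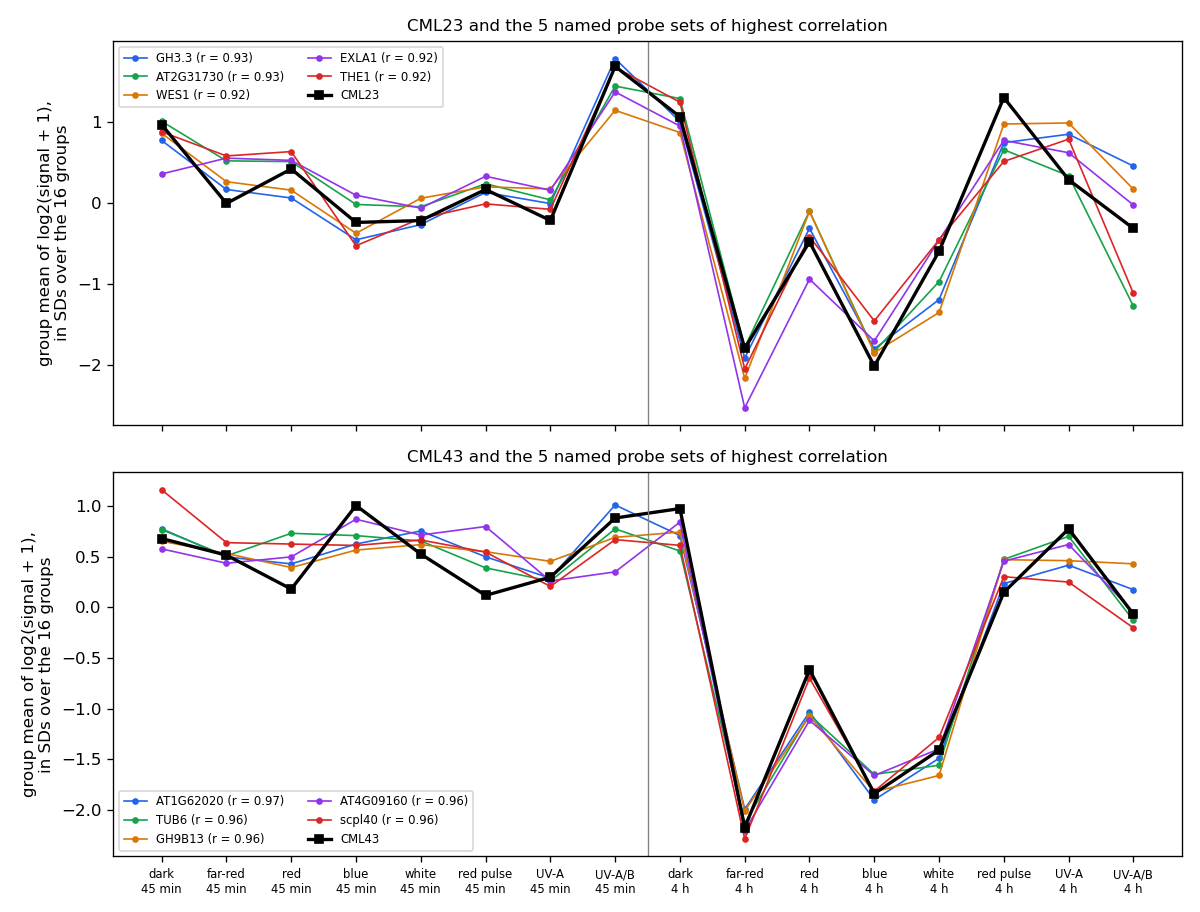
Group means of log2(signal + 1) of CML23 (top) and CML43 (bottom) with the 5 named probe sets of highest Pearson correlation, each in SDs over the 16 groups. All lines drop in far-red, red, blue and white light at 4 h, and those of the CML23 panel also peak after UV-A/B at 45 min (r from 0.917 to 0.935 for CML23 and 0.955 to 0.970 for CML43).

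The other calcium genes were read from lists with 226 entries in all. Calmodulins, calmodulin-like and calcineurin B-like genes were listed by locus. Channels, pumps, kinases and calmodulin-binding proteins were found by patterns of gene symbols and synonyms. Of these genes, 53 had a probe set of a single named gene and 32 passed the filter: 19 calmodulin-like genes, 5 glutamate receptor-like channels and 8 calmodulin-binding IQD proteins. Calmodulins, calcineurin B-like proteins, calcium-dependent kinases and calcium pumps were not analysed here, nor were CML24 and CML12 (the touch gene TCH3), because no named probe set stood for them. A gene was called where its adjusted p from limma (Benjamini-Hochberg over all 15780 probe sets in a comparison) was under 0.05. At 45 min, 4 of 224 tests of list genes over 7 treatments were called higher (1.79%) and 0 lower, against 2.61% and 1.49% of all tests. At an unadjusted p under 0.05 limma gave 10 higher and 11 lower. When replicate numbers entered the fit as a block, which the deviations of same-numbered arrays warrant in 5 of the 7 comparisons at 45 min, the list gave 5 higher and 3 lower. At 4 h, 8 tests were called higher (3.57%) and 27 lower (12.1%), against 8.75% and 8.77% of all tests.

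By treatment at 4 h, 2 of the 32 list genes rose and 7 fell in far-red light, where 13.6% of all probe sets were called higher and 15.4% lower. In blue light 2 rose and 7 fell (12.8% and 13.6% of all), in white light 1 rose and 4 fell (11% and 10.2%), and in red light 1 rose and 2 fell (8.49% and 7.62%). After UV-A/B 2 rose and 4 fell (10.9% and 11.4%), after UV-A 0 rose and 2 fell (2.55% and 2.15%), and after the red pulse 0 rose and 1 fell (1.81% and 0.919%). The median difference of the 32 genes was -0.09 in far-red, -0.11 in blue and -0.13 in white light, while that of all tested probe sets was -0.03, -0.02 and -0.01.

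Within the calmodulin-like family, 3 of the 19 tested genes fell in at least 1 treatment at 4 h and 1 rose. By test, 14 of 133 were called lower and 1 higher, against 8.77% and 8.75% of all tests. The share of all probe sets called in at least 1 treatment was not computed, so nothing particular to the family is read from these counts. AT3G10190 fell in all 7 treatments. Its signal was 155 ± 7.85 in darkness, 62.7 ± 1.81 in far-red and 59.6 ± 5.66 in blue light (SD, n = 3), with log2 differences of -1.29 and -1.36 (SE 0.12). The limma adjusted p was at most 0.0056 in each of the 7, and the smallest fall, -0.53 after the red pulse, was not called without red pulse 4 h replicate 3 (-0.44, limma adjusted p = 0.0769). The 4 h effect of AT3G10190 differed from its 45 min effect in every treatment, with differences from -0.63 after the red pulse to -1.46 in far-red light. Over the 7 treatments such a difference was called higher in 4.07% and lower in 4.19% of all tests. AT3G59440 fell in far-red light, in blue light (-1.09, SE 0.25, limma adjusted p = 0.0007), in white light and after UV-A/B, from a dark signal of 63.0 ± 2.39. Its white light call (-0.75, adjusted p = 0.0249) was lost when any of 5 of the 6 arrays was left out, dark 4 h replicate 1 among them (-0.72, limma adjusted p = 0.0730). Its UV-A/B call (-0.83, adjusted p = 0.0124) did not hold without UV-A/B 4 h replicate 2 (-0.62, limma adjusted p = 0.119). AT3G10300 fell by 0.39 to 0.45 in far-red, blue and white light, calls that were lost in each light without dark 4 h replicate 2 (limma adjusted p of 0.107 to 0.190). Those in far-red and white light were also lost without dark 4 h replicate 1 (limma adjusted p of 0.0763 and 0.0822) and without some of the light arrays. AT2G41090 rose after UV-A/B from 56.4 ± 5.27 to 110 ± 25 (0.94, SE 0.15, n = 3).

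CML42, the closest named relative of CML43, was not called in any of the 14 comparisons. Its differences lay between -0.40 and 0.31 at 45 min and between 0.16 and 0.35 at 4 h. At 4 h the CML43 values were below 0 in every treatment, from -1.09 to -0.07 (SE 0.21). The 2 genes were not tested against each other. With the replicate block CML42 was called after UV-A at 45 min (-0.40, limma adjusted p = 0.0492) and after UV-A/B at 4 h (0.35, limma adjusted p = 0.0414).

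**Figure D4:**
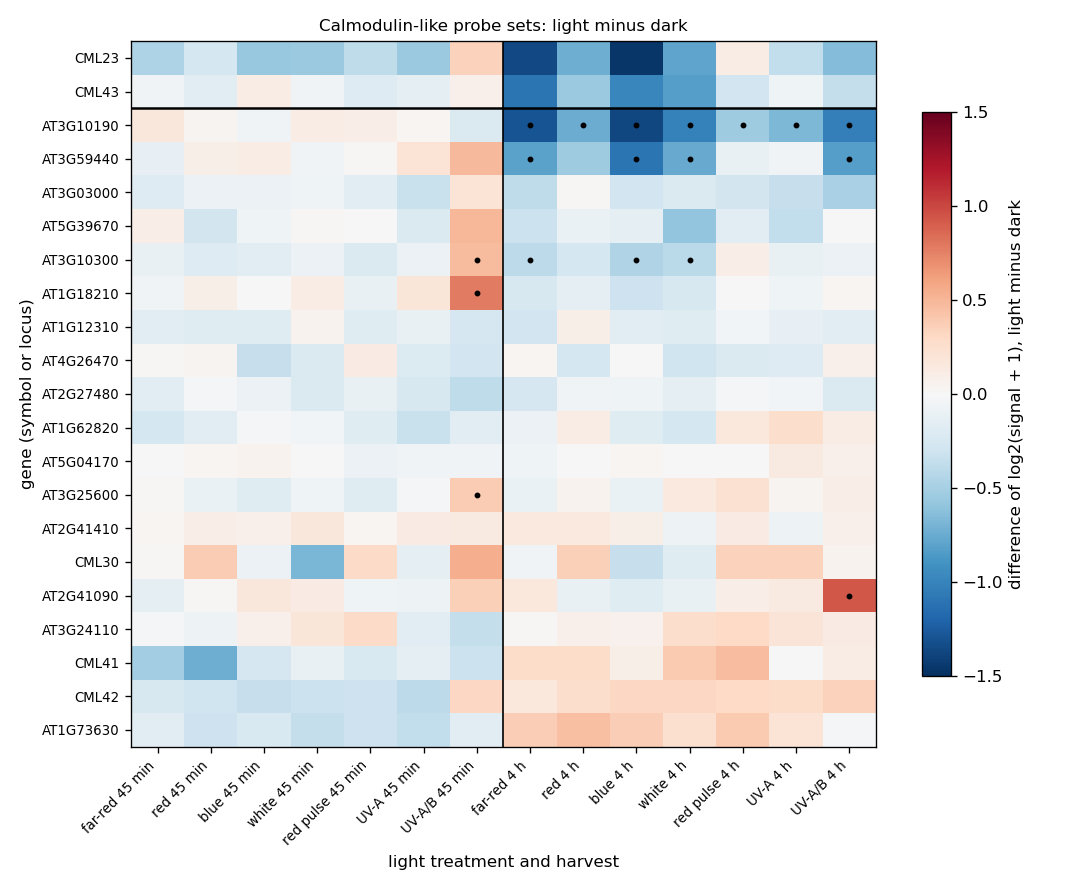
Difference of log2(signal + 1) from darkness for CML23, CML43 (above the line, not tested) and the 19 other tested calmodulin-like genes, in 7 treatments at 45 min (left) and 4 h (right), with blue for lower and red for higher. Black dots mark limma adjusted p under 0.05, of which 3 fall at 45 min, all after UV-A/B, and 15 at 4 h, 7 of them in AT3G10190.

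The other calcium lists were short. Of the 5 tested channels, GLR3.3, a glutamate receptor-like channel of wound signalling, rose in far-red and blue light (0.41 and 0.43, SE 0.16, limma adjusted p of 0.0479 and 0.0425). Both calls were lost without dark 4 h replicate 1 (limma adjusted p of 0.0565 and 0.0513), and each was lost with any of 5 of its 6 arrays left out. GLR1.4 fell after UV-A (-0.75, limma adjusted p = 0.0192), a call also lost with any of 5 of 6 arrays left out, dark 4 h replicate 1 among them (-0.73, limma adjusted p = 0.0707). Of the 8 IQD proteins, which bind calmodulin and many of which lie on microtubules, 4 fell and 1 rose at 4 h. By light this was 4 lower and 1 higher in both far-red and blue light, where 15.4% and 13.6% of all probe sets were called lower and 13.6% and 12.8% higher. These were named after their values were seen: IQD19, IQD22, IQD26 and iqd32 fell in far-red and blue light, with differences of -0.56 to -2.13, and IQD23 rose in 5 treatments by 0.76 to 1.03. The IQD22 call in blue light was lost without blue 4 h replicate 1 (-1.07, limma adjusted p = 0.174) and that of IQD26 without blue 4 h replicate 2 (-0.77, limma adjusted p = 0.106). The IQD26 call in far-red light was lost with any of its 6 arrays left out (limma adjusted p from 0.0527 to 0.134).

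All 4 calcium list calls at 45 min came after UV-A/B, the group in which CML23 stood highest, where 5.29% of all probe sets were called higher. With the replicate block this did not hold: AT3G59440 was then also called higher and IQD26 lower after UV-A/B, and IQD22 and CML42 were called lower after UV-A. AT1G18210, on the calmodulin-like list, rose from 421 ± 65.9 to 726 ± 135 (0.78, SE 0.14, limma adjusted p = 0.0001, n = 3). AT3G10300 rose by 0.47 (limma adjusted p = 0.0231), AT3G25600 by 0.38 (limma adjusted p = 0.0139) and IQD23 by 0.75 (limma adjusted p = 0.0052). Without UV-A/B 45 min replicate 2 the AT3G10300 value was 0.40 and was not called (limma adjusted p = 0.131), nor was it without UV-A/B 45 min replicate 3 (limma adjusted p = 0.0649) or dark 45 min replicate 3 (limma adjusted p = 0.182). AT3G25600 was not called without UV-A/B 45 min replicate 3 (0.28, limma adjusted p = 0.127) or dark 45 min replicate 1 (limma adjusted p = 0.0553), and IQD23 was not called without dark 45 min replicate 3 (0.62, limma adjusted p = 0.0572).

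Genes of touch and rapid stress responses were measured for 3 of 10 list members. WRKY53, WRKY6 and STZ encode transcription factors of stress and senescence, and all 3 rose after UV-A/B at 45 min. WRKY53 rose from 18.3 ± 2.27 to 52.0 ± 5.22 (1.46, SE 0.29, limma adjusted p = 0.0003, n = 3). Its dark mean lay under the level of the filter on low values, and its median over all arrays was 17.1. The 3 UV-A/B arrays alone were enough for it to pass that filter, which limits what its p-value and the size of its rise can show. WRKY6 rose from 73.8 ± 8.36 to 198 ± 21.1 (1.41, SE 0.27, limma adjusted p = 0.0002, n = 3), and STZ from 63.9 ± 8.35 to 116 ± 19.7 (0.84, SE 0.18, limma adjusted p = 0.0008, n = 3). WRKY6 also rose after UV-A (1.06, limma adjusted p = 0.0089), a call lost without dark 45 min replicate 2 (limma adjusted p = 0.0605) or UV-A 45 min replicate 3 (limma adjusted p = 0.0727), and in blue light (0.92, limma adjusted p = 0.0417), where most arrays left out ended the call. At 45 min 5 of 21 tests of these genes were called, all higher, against 2.61% of all tests. At 4 h 0 of 21 were called, against 8.75% higher and 8.77% lower of all tests. These shares are descriptions, since the list was chosen with earlier results of these data known.

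Both shoot markers also differed from darkness at 4 h, in opposite directions. At that harvest RCA rose in each of the 7 treatments, from 491 ± 22.9 in darkness to 2099 ± 77.6 in far-red light, and PORB fell in far-red, blue and white light, from 1011 ± 133 to 345 ± 59.0 in far-red light (n = 3). The root marker PYK10 was not called in any of the 14 comparisons, with 4 h differences of -0.16 to 0.16. Only these 2 of 6 shoot and 2 of 6 root markers had a probe set, and their part in the results on CML23 and CML43 was not tested. Of the neighbouring genes on the chromosome in the RefSeq annotation, MYB90 and CAM4 flank CML23 and had no named probe set. AT5G44450, next to CML43, fell in white light (-0.38, limma adjusted p = 0.0487) and was not called in far-red light (-0.29, limma adjusted p = 0.125) or blue light (-0.33, limma adjusted p = 0.0878).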

How the data were processed

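Intensity values of 48 ATH1 arrays were used as the authors deposited them, on a linear scale. MAS5 made them, per the submitters' processing notes, and its version is not given in the sources used here. The trimmed mean is the same in every array, so no further scaling was applied, and changes in total RNA cannot be seen. No detection calls were used, and precision is limited by the number of arrays.

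Groups and replicate numbers came from the sample labels. Values were transformed to log2(signal + 1). A probe set was kept if its signal exceeded the array's 40th percentile on 3 or more arrays, and 64 control probe sets were left out of 22810. A model of 16 group means was fitted to all 48 arrays with limma 3.58.1 (R 4.3.3, eBayes with an intensity trend), with 32 residual degrees of freedom and 26 contrasts. P-values were adjusted by Benjamini-Hochberg over the 15780 tested probe sets in each contrast. The script was tested on simulated data. Tables and figures were made with Python 3.11.15, pandas 2.3.3, numpy 2.4.6 and matplotlib 3.10.9.

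Of 22746 probe sets without controls, 13513 have 1 gene in the probe table, 503 have several and 8730 are not listed. Of the 13513, 13436 matched the RefSeq gene table (used for symbols and gene order, not for positions). CML23, CML43 and all lists were chosen with earlier results of these data known. Named were both genes, the 5 probe sets most correlated with each, called calmodulin-like genes with the 3 largest changes per harvest, the closest relatives, and stress list genes in the comparisons where a member differed most. Further called list genes were named after their values were seen.

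Deviations of same-numbered arrays from their group means correlated above 0.1 for each of the 3 numbers in 6 of 14 light against dark comparisons (red pulse, red, blue, UV-A and UV-A/B at 45 min, and UV-A/B at 4 h). The replicate block was an alternative, beside another pseudocount, quantile normalization, no filter, fits on 2 groups alone and arrays left out.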

Additional observations from a re-analysis of the deposited data

Results flagged for a closer look

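After UV-A/B all 3 arrays of CML23 and of CML43 lay above the mean of the dark arrays at 45 min and below it at 4 h. The ranges overlapped those of darkness at both harvests. For CML43 at 45 min all 3 lay within the dark range, and the difference of 0.07 (SE 0.21) ran from -0.05 to 0.21 with single arrays left out. How many other probe sets have this order was not computed. The 4 h effect minus the 45 min effect was -0.99 (SE 0.35) for CML23 and -0.43 (SE 0.30) for CML43 on the log2 scale. This difference between harvests was not tested because both genes were chosen on these arrays. With single arrays left out the difference between harvests lay between -1.25 and -0.70 for CML23 and between -0.57 and -0.29 for CML43. Without the arrays whose labels conflict, the CML23 value was -0.91 (without dark 4 h replicate 1) or -0.99 (without UV-A/B 45 min replicate 2), and the CML43 value was -0.46 or -0.44.

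Among the list genes the same difference between harvests was tested with limma, and 16 of 245 differences (35 genes in 7 treatments) had an adjusted p under 0.05, 14 lower and 2 higher, in 7 genes. Of all tests of this kind over all probe sets, 4.19% were called lower and 4.07% higher. AT3G10190 had lower effects at 4 h in far-red (-1.46), blue (-1.31), white (-1.13), UV-A/B (-0.80), red (-0.78), UV-A (-0.71) and red pulse (-0.63) treatments. AT3G59440 had lower effects after UV-A/B (-1.31) and in blue light (-1.20). For AT1G18210 (-0.75) and the stress gene WRKY53 (-1.39) the difference was found after UV-A/B, where both had risen at 45 min. The rise of WRKY53 started from a dark mean under the level of the filter on low values, which limits its value here too. Among calmodulin-binding proteins, IQD19 differed in far-red light (-0.94), iqd32 in far-red (-0.88) and blue light (-0.60), and IQD23 in the other direction in far-red (0.84) and white light (0.82).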

How the results depend on the processing

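All 52 differences of CML23 and CML43 moved by less than the SD between replicates, pooled over the groups of each comparison on the log2 scale, under quantile normalization. The same held with the replicate block and with any single array left out, but there it says little. The block cannot change an estimate where every group has each replicate number. Leaving out 1 array moves a difference between 2 groups by less than that SD by arithmetic. With single arrays left out, the CML23 difference in red light at 45 min still ran from -0.47 to -0.09. With a pseudocount of 16, 47 of the 52 moved by less than that SD and 5 shrank by more, all of CML23. These were -0.94 in far-red and -0.99 in blue light at 4 h and 0.69 for UV-A/B against UV-A at 45 min. The others were -0.59 (far-red) and -0.57 (blue) for the 4 h effect minus the 45 min effect. Of the 52 differences, 14 changed sign under some setting, none of them a continuous light effect at 4 h. Of the calcium list, 4 tests were called at 45 min, 8 with the replicate block, and between 2 and 5 with 1 array left out, with 2 without dark 45 min replicate 3 or UV-A/B 45 min replicate 3. At 4 h, 35 were called, between 25 and 36 with 1 array left out and 38 with the replicate block. Without both arrays of conflicting labels the counts were 3 and 30. MAS5 signals under the 40th percentile, as those of CML23 in far-red and blue light at 4 h, limit the precision of its largest differences.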
